A study of Homo sapiens with 18 samples.

Results

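The effect of losing EZH2 was set against the effect of blocking its enzyme in MDA-MB-231 cells, gene by gene. The measure is a difference of differences, the log2 change of shEZH2 against control shRNA minus the log2 change of GSK126 against DMSO. It rests on 8 of the 10 distinct libraries of the series, 2 in each of the 4 groups, and on 15309 genes that passed a filter on low counts. A positive value marks a gene that was higher with depletion than with the inhibitor, each against its own control, and a negative value the opposite. The comparison sets loss of the EZH2 protein beside a block of its methyltransferase activity. Virus and puromycin were given to control shRNA and shEZH2 alike, so that an effect common to both is subtracted within the depletion experiment. Whether they altered the response to depletion, or the shEZH2 construct acted on other transcripts, cannot be told apart from loss of EZH2.

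The enzyme EZH2 works within the Polycomb complex PRC2, whose other core subunits are SUZ12 and EED. The complex trimethylates a lysine of histone H3, a mark of silenced genes, and its classic targets are HOX genes and other developmental regulators. GSK126 competes with the methyl donor at the active site, so that treated cells keep the EZH2 protein but lose methylation, whereas a hairpin removes the protein with any function it has outside the active site. In triple-negative breast cancer EZH2 is often abundant, and the E2F transcription factors, which drive genes of DNA synthesis and mitosis, have been linked to it.

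MDA-MB-231 is an established triple-negative breast cancer line of mesenchymal character. In the depletion experiment, cells received a lentiviral control shRNA or shEZH2 for 24 h and were kept in puromycin at 2 μg/ml for 72 h. In the inhibitor experiment, cells were kept in DMSO or in 1 μM GSK126 for 72 h, with no virus or puromycin named in the labels. The labels do not say whether replicates came from separate cultures, so that p-values cover only the spread between these libraries. All 4 groups share the line and its medium, the single shEZH2 construct stands for depletion, and a single dose and time stand for inhibition. Library totals ran from 13198932 counts (shEZH2 replicate 1) to 20055550 counts (DMSO replicate 1), and mitochondrial genes took 4.43% to 5.46% of them. In a principal component analysis the first component, 74.0% of the variance, set both shEZH2 libraries apart from the other 6. On the second, 13.3%, control shRNA lay at -19.9 and -34.7, shEZH2 at 0.5 and 5.1, and the drug libraries from 6 to 19.5. DMSO and GSK126 libraries were split by replicate number on the third, 4.5%. Of the mesenchymal markers, VIM ran from 1185 to 2860 TPM (a level per transcript length) over the 8 libraries, while the luminal markers ESR1, PGR and FOXA1 did not exceed 0.17 TPM. Not every marker followed the label, since the luminal markers KRT19 and EPCAM ran from 246 to 847 TPM and from 26.15 to 37.7 TPM, ERBB2 did not fall below 20 TPM, and the mesenchymal marker SPARC stayed between 1.52 and 4.26 TPM. The summed level of 10 mesenchymal markers was 3095 and 3326 TPM in shEZH2 and 5077 to 5793 TPM elsewhere, and that of 10 luminal markers 309 and 322 TPM against 546 to 928 TPM. Their part in the results was not tested, and in bulk RNA fewer cells of a type and less RNA per cell cannot be told apart.

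The targeted gene was checked first. EZH2 (ENSG00000106462, chromosome 7, 148807257 to 148884321, minus strand, GRCh38) stood at 150.01 and 178 CPM in control shRNA, 51.8 and 43.8 in shEZH2, 121 and 124 in DMSO, and 131 and 139 in GSK126. Here CPM is a gene's count scaled by TMM to the total of its library. EZH2 fell in shEZH2 by 1.78 on the log2 scale and moved by 0.14 under GSK126, so that the difference was -1.92 ± 0.18 (SE) at an edgeR adjusted p of 1.10e-04. Both shEZH2 libraries lay below the other 6. The other core subunits did not pass the test, with a difference of 0.19 for SUZ12 (edgeR adjusted p 0.529), 0.19 for EED and 0.39 for EZH1, the paralog of EZH2. Among the accessory subunits, PHF19, which guides PRC2 to CpG islands, fell with depletion from 257 and 283 CPM in control shRNA to 133 and 122 CPM, and JARID2, a DNA-binding partner of PRC2, rose. PHF19 was at 134 and 166 CPM in DMSO against 141 and 178 in GSK126, near its shEZH2 level before any drug, a difference of -1.17 ± 0.21 (SE), and JARID2 at 86.4 and 73.8 CPM in control shRNA against 177 and 200.2 in shEZH2, a difference of 1.33 ± 0.18 (SE). MTF2, a homolog of PHF19, differed by 1.03. With EZH2 itself, the target of the hairpin, 4 of 13 PRC2 genes tested were called, 2 in each direction. Over all genes 4.67% were called higher and 8.01% lower. The PRC2 count was 1 in each direction without control shRNA replicate 1, GSK126 replicate 2 or shEZH2 replicate 2. It was also 1 in each after a correction for GC content and gene length.

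The experiments were first compared by their counts of calls. A call required both an edgeR adjusted p under 0.01 and over 2-fold change. The difference was called for 715 genes in the direction higher after depletion (4.67% of genes tested) and 1226 lower (8.01%). For shEZH2 alone the counts were 1107 higher (7.23%) and 1591 lower (10.4%). For GSK126 alone edgeR called 0 genes in the same fit, with 623 at an unadjusted p under 0.05 and a smallest adjusted p of 0.121, and DESeq2 called 12. Those 623 make up less than a 0.05 share of genes tested, the share that such p-values reach with no effect. A fit of the 4 drug libraries paired by replicate was added after the data were seen and has 1 residual degree of freedom. In it 1959 genes had an edgeR adjusted p under 0.05. Its p-values can be small where replicates disagree. ENSG00000285238, at 14.6 and 0 CPM in DMSO and 0 in both GSK126 libraries, had an edgeR adjusted p of 4.86e-13 there. The 0 calls of the main fit do not by themselves show that the inhibitor left transcripts as they were. Across the 11830 genes with a mean of at least 50 counts, log2 changes spread with an SD of 0.85 in shEZH2 and 0.23 in GSK126, and they correlated at r = 0.02 across genes, which are not independent replicates.

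**Figure D1:**
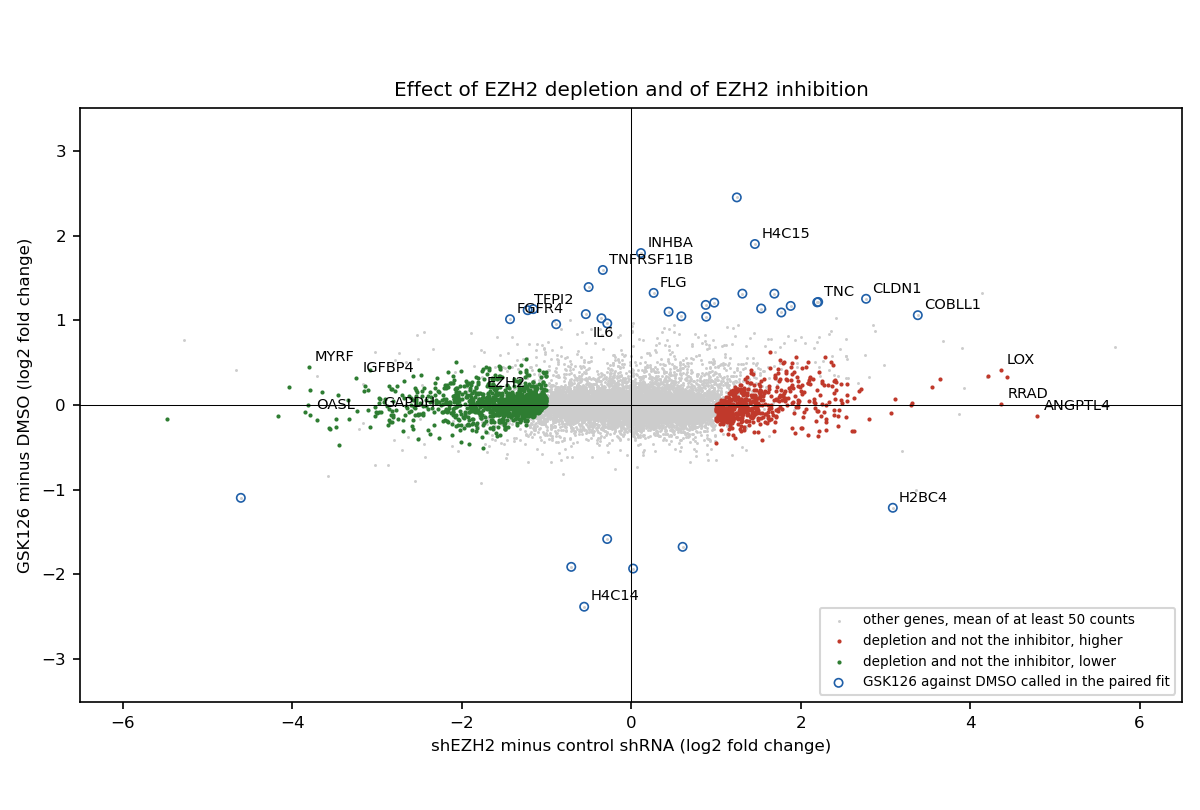
Log2 change of each gene in shEZH2 against control shRNA (horizontal axis) and in GSK126 against DMSO (vertical axis), for 11827 genes with a mean of at least 50 counts (3 lie outside the axes). Coloured points answered depletion and not the inhibitor, and blue rings mark genes called for GSK126 in the fit paired by replicate. The coloured points form a flat band by selection, since their class requires a GSK126 interval within 2-fold.

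Genes that answered depletion and not the inhibitor were defined by 3 conditions together. The difference was called, the shEZH2 change was called in the same direction, and the 95% interval of the GSK126 change lay within 2-fold either way, which leaves room for smaller changes. This held for 528 genes that rose (3.45% of genes tested) and 1047 that fell (6.84%). Of the 1591 genes lower in shEZH2, 1387 (87.2%) had a GSK126 interval inside 2-fold, with a median GSK126 change of 0.00 and 787 (49.5%) of the same sign. Of the 1107 genes higher in shEZH2, 751 (67.8%) had such an interval, with a median of 0.07 and 676 (61.1%) of the same sign. Protein-coding genes made up most of the class, 500 higher (3.90% of those tested) and 979 lower (7.63%), against 26 (1.42%) and 57 (3.10%) of the long noncoding RNAs. The genes that fell were richer in GC, with a median of 56.3% against 48.0% over all genes and 45.3% in those that rose. The difference correlated with GC content at r = -0.23 across genes, the shEZH2 change at r = -0.24 and the GSK126 change at r = 0.01, and the part of GC content in the result was not tested. After each library was corrected for GC content and gene length, 382 of the 528 and 725 of the 1047 genes remained in the class.

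ANGPTL4 rose the most among the named genes that rose with depletion. The genes named here had a mean of at least 200 counts, shEZH2 and control libraries that did not overlap, and a GSK126 change within 0.5. ANGPTL4 (ENSG00000167772, chromosome 19, 8363289 to 8374370, plus strand) encodes a secreted inhibitor of lipoprotein lipase and stood at 4.79 and 6.38 CPM in control shRNA, 141 and 168 in shEZH2, 10.97 and 13.5 in DMSO, and 9.36 and 12.9 in GSK126. Both shEZH2 libraries lay above the other 6, and the difference was 4.93 ± 0.29 (SE) at an edgeR adjusted p of 9.09e-06. LOX (ENSG00000113083, chromosome 5, 122063195 to 122078413, minus strand), which crosslinks collagen, stood at 19.3 and 13.999 CPM in control shRNA, 311 and 374 in shEZH2, 32.8 and 34.6 in DMSO, and 44.1 and 45.4 in GSK126. The GSK126 libraries of LOX lay above both DMSO libraries, but its GSK126 interval of 0.07 to 0.75 stayed inside 2-fold and the difference was 3.95 ± 0.22 (SE). In the paired fit its GSK126 change was 0.41 at an edgeR adjusted p of 2.89e-05. RRAD, a small GTPase that restrains calcium channels and glucose uptake, stood at 8.89 and 7.68 CPM in control shRNA, 139.9 and 203 in shEZH2, 23.2 and 30.4 in DMSO, and 23.3 and 30.4 in GSK126. SPNS2 exports sphingosine 1-phosphate and was at 2.34 and 2.07 CPM in control shRNA, 43.4 and 52.1 in shEZH2, 2.67 and 4.87 in DMSO, and 3.697 and 5.69 in GSK126. Their differences were 4.36 ± 0.30 (SE) and 4.10 ± 0.41 (SE), at edgeR adjusted p values of 2.71e-05 and 1.35e-04, and no drug library of RRAD or SPNS2 reached an shEZH2 library.

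The named genes that rose also held a pair of metallothionein genes, ATF3, HMOX1 and KDM7A. MT1X and MT1E encode metallothioneins, small proteins that bind zinc and copper. MT1E stood at 115 and 125 CPM in control shRNA, 969 and 1423 in shEZH2, 82.4 and 135 in DMSO, and 85.4 and 135 in GSK126, and MT1X at 15.2 and 14.6 CPM in control shRNA, 159 and 214 in shEZH2, 15.02 and 27.6 in DMSO, and 21.7 and 31.02 in GSK126. In both genes shEZH2 lay above every other library, with differences of 3.30 ± 0.37 (SE) and 3.33 ± 0.37 (SE) and edgeR adjusted p of 2.41e-04 and 2.28e-04. The other metallothioneins tested, looked up after these values were seen, differed by 1.66 (MT2A), 2.10 (MT1F) and -1.48 (MT1A), of which the first 2 were called. Metallothionein genes are near-identical copies, so that reads may have been divided among them by the authors' counting. ATF3, a transcription factor of the stress response, was at 4.68 and 6.14 CPM in control shRNA against 40.8 and 49.5 in shEZH2 and at 21.3 and 23.7 CPM in DMSO against 18.9 and 23.1 in GSK126, so that the drug libraries lay between control shRNA and shEZH2. HMOX1 (heme oxygenase) and KDM7A (a histone demethylase) differed by 2.69 and 3.04, at edgeR adjusted p values of 2.27e-04 and 1.06e-04. CACFD1, named by the same rule, differed by 2.97 ± 0.26 (SE).

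The largest falls with depletion were spread over several functions. MYRF (ENSG00000124920, chromosome 11, 61752636 to 61788518, plus strand), a membrane-bound transcription factor known from myelin, stood at 25.02 and 19.6 CPM in control shRNA, 1.33 and 1.802 in shEZH2, 8.55 and 10.2 in DMSO, and 11.7 and 13.9 in GSK126. UCP2, a carrier of the inner mitochondrial membrane, was at 174 and 143 CPM in control shRNA, 17.2 and 5.86 in shEZH2, 107 and 123 in DMSO, and 104 and 125 in GSK126. Both shEZH2 libraries of either gene lay below all others, with differences of -4.25 ± 0.31 (SE) for MYRF and -3.82 ± 0.45 (SE) for UCP2 and edgeR adjusted p of 3.34e-05 and 2.80e-04. Both GSK126 libraries of MYRF lay above both DMSO libraries. This rise of 1.36-fold makes up part of its difference. IGFBP4 (ENSG00000141753, chromosome 17, 40443450 to 40457725, plus strand), which binds insulin-like growth factors, was the most abundant of them, at 1288 and 1165 CPM in control shRNA, 159 and 99.9 in shEZH2, 1021 and 1114 in DMSO, and 1290.4 and 1362 in GSK126, and its difference was -3.56 ± 0.26 (SE). Under GSK126 IGFBP4 rose 1.24-fold. The cytokine IL11 stood at 144 and 132 CPM in control shRNA, 17.2 and 15.5 in shEZH2, 49.97 and 62.6 in DMSO, and 64.1 and 85.5 in GSK126. Its GSK126 libraries lay above the DMSO libraries of the same number, a change of 0.41, and the difference was -3.49 ± 0.24 (SE). SEMA3B (a secreted semaphorin, whose control libraries were at 163 and 78.8 CPM), PHLDA2 (an imprinted growth regulator), COL8A1 (a collagen chain) and HSPG2 (perlecan, a basement membrane proteoglycan) differed by -3.53, -3.32, -3.30 and -3.28, with edgeR adjusted p from 2.71e-05 to 2.54e-04. GDF15, a stress-induced ligand of the TGF-beta family, differed by -3.28, from different starting levels. It was at 4.68 and 3.13 CPM in control shRNA, 0.741 and 0.225 in shEZH2, 24.5 and 41.2 in DMSO, and 34.5 and 39.6 in GSK126. GDF15 met the rule on mean counts through the drug libraries. Its level in shEZH2 replicate 2 was near 3 counts, which is 0.170 CPM in that library, so that the size of its fall is uncertain.

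**Figure D2:**
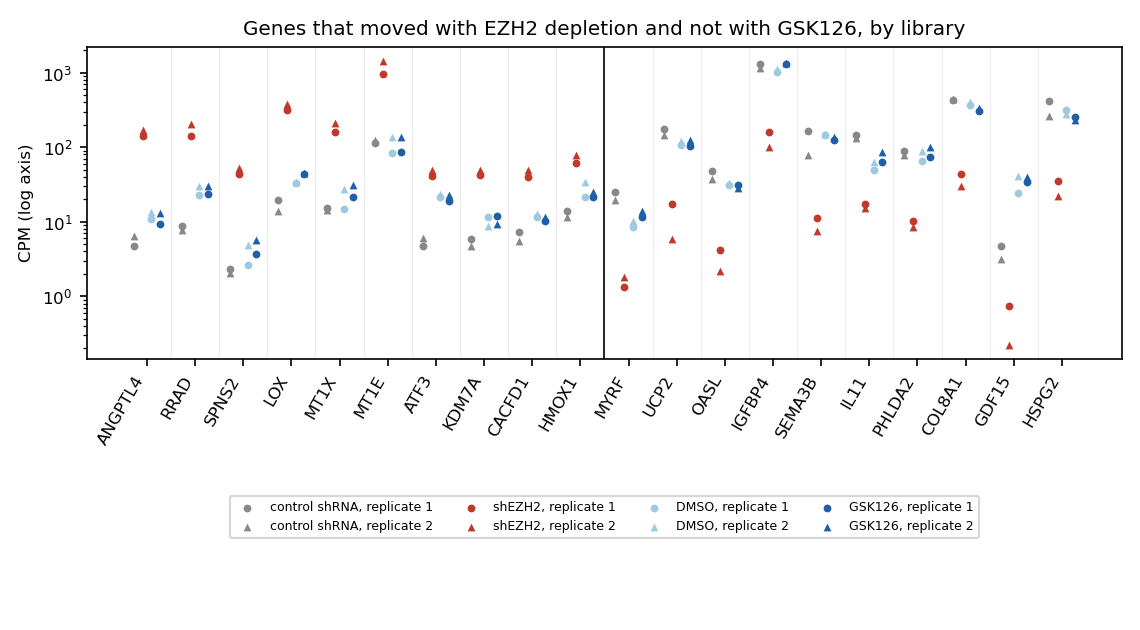
CPM (log axis) in each of the 8 libraries for the 10 genes per direction named among those that moved with depletion and not with the inhibitor, higher on the left of the line and lower on the right. Red points (shEZH2) stand apart from control shRNA (grey) in each gene, which the choice of genes required. They also stand apart from both drug groups (blue), which it did not require.

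Starting levels differed between experiments for some of these genes. Of the 528 genes that rose, 30 (5.68%) had DMSO and control shRNA means more than 2-fold apart, 27 of them higher in DMSO, and of the 1047 that fell 16 (1.53%) did. Over all genes tested the share was 3.77%. Virus and puromycin are bound up with the depletion experiment, and their part in starting levels cannot be told apart from that of the culture.

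Genes of DNA synthesis and mitosis fell with depletion where they were called, and their GSK126 changes stayed between -0.20 and 0.38. Many S phase genes carry an E2F element near the start, and many mitotic genes a cell cycle homology region (CHR, TTTGAA). The promoter stretches of MCM6 and CDCA7 (S phase) and of CDC20 and CDCA3 (mitosis) are shown because these genes are described here and hold such letters. Sequences are from RefSeq (GRCh38.p14), written on the strand of the gene, with matches to the motif on either strand in capitals.
MCM6 (chr2:135876477-135876640, minus strand): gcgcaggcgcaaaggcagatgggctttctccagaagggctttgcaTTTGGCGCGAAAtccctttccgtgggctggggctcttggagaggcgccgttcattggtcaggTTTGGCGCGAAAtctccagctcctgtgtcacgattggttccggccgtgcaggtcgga
CDCA7 (chr2:173354762-173354859, plus strand): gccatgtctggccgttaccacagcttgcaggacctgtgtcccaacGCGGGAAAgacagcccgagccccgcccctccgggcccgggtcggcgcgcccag
CDC20 (chr1:43358758-43358966, plus strand): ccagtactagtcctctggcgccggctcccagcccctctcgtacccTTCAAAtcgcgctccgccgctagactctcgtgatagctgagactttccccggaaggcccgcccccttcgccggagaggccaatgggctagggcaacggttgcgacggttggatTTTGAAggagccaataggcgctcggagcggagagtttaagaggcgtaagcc
CDCA3 (chr12:6851239-6851334, minus strand): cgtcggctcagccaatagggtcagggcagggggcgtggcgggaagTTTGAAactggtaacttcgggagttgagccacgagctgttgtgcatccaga

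In MCM6, a subunit of the replicative helicase, a pair of overlapping matches on opposite strands occurs in each capital stretch. It stood at 129 and 129 CPM in control shRNA, 50.7 and 31.02 in shEZH2, 98.2 and 108.3 in DMSO, and 117 and 114 in GSK126. CDCA7, a regulator of DNA methylation at repeats, was at 44.9 and 55.5 CPM in control shRNA, 18.4 and 14.7 in shEZH2, 41.6 and 39.5 in DMSO, and 52.3 and 51.8 in GSK126. The shEZH2 libraries of both genes lay below the other 6, with differences of -1.83 ± 0.26 (SE) and -1.96 ± 0.21 (SE) and edgeR adjusted p of 6.64e-04 and 2.00e-04. Under GSK126 CDCA7 rose 1.28-fold, which makes up part of its difference. E2F8, a repressor of the E2F family, differed by -2.13 and E2F1 itself by -1.78 ± 0.34 (SE). E2F1 was at 140.4 and 136 CPM in control shRNA, 61.4 and 31.6 in shEZH2, 82.5 and 106 in DMSO, and 101 and 115 in GSK126, with the shEZH2 replicates nearly 2-fold apart, and its call was lost without either control library. Under GSK126 it changed by 0.20 in the paired fit, at an edgeR adjusted p of 0.00201. In all, 12 of 43 S phase genes were called (27.9%, beside 8.01% of all genes), all lower. Of the 12, 11 were in the class that did not answer the inhibitor. The median difference of the list was -0.59, made of -0.56 in shEZH2 and 0.07 in GSK126, beside -0.03, -0.03 and -0.01 over all genes tested. All 43 GSK126 intervals lay inside 2-fold.

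Fewer mitotic genes were called. CDC20, the activator of the anaphase-promoting complex, stood at 355 and 424 CPM in control shRNA, 147 and 134 in shEZH2, 212 and 277 in DMSO, and 215 and 281 in GSK126, a difference of -1.49 ± 0.24 (SE) at an edgeR adjusted p of 0.00115. CDCA3, a trigger of mitotic entry, was at 99.6 and 111 CPM in control shRNA, 30.6 and 20.5 in shEZH2, 62.1 and 76.4 in DMSO, and 63.3 and 82.6 in GSK126, a difference of -2.13 ± 0.27 (SE). The mitotic kinase AURKB and PIMREG differed by -2.44 and -1.77. Of 54 G2/M phase genes 7 were called (12.96%, beside 8.01% of all genes), all lower, and the median difference was -0.35. In DMSO the replicate 2 level of CDC20 lay above that of replicate 1, and the same held in GSK126. Outside that list, the kinase PLK1 stood at 160.2 and 189.8 CPM in control shRNA against 61.1 and 51.4 in shEZH2 and cyclin B1 (CCNB1) at 313 and 385 CPM in control shRNA against 152 and 138 in shEZH2, with differences of -1.68 ± 0.22 (SE) and -1.34 ± 0.20 (SE).

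Genes of the replication fork were lower where they were called. GINS4 and POLD2, a subunit each of the helicase complex and of polymerase delta, stood at 72.2 and 70.9 CPM in control shRNA against 19.9 and 9.97 in shEZH2 and at 169.6 and 197 CPM in control shRNA against 62.4 and 39.6 in shEZH2. Under the inhibitor GINS4 was at 52.3 and 53.2 CPM in DMSO against 53.5 and 54.5 in GSK126. The GSK126 changes of both genes were 0.03 and 0.10, and the differences were -2.31 ± 0.32 (SE) and -1.95 ± 0.30 (SE). Of 52 genes of replication licensing and forks 14 were called (26.9%, beside 8.01% of all genes), all lower. Of the 14, 12 were in the class that did not answer the inhibitor, and the median difference of the list was -0.58. RRM2, the ribonucleotide reductase subunit that limits deoxynucleotide supply, differed by -1.78 ± 0.32 (SE) and E2F5 by -1.77 ± 0.35 (SE), and both calls were lost without either control library, that of E2F5 also without shEZH2 replicate 2. In the homologous recombination and Fanconi list 3 of 36 genes were called (8.33%, near the 8.01% of all genes), all lower: the nuclease MUS81 (-1.87) and the Fanconi genes FANCD2 (-1.43) and FANCF (-1.38). The counts depended on single libraries. Without shEZH2 replicate 2 the S phase count was 6 and the replication count 5, without control shRNA replicate 1 they were 5 and 6, and without control shRNA replicate 2 they were 5 and 4, while the G2/M count stayed between 7 and 10.

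Interferon-stimulated genes were lower with depletion where they were called. Many of their promoters carry the interferon-stimulated response element (ISRE), and those of IFIT1 and BST2 are shown as the named members that hold it, from the same source with the element (a pair of GAAA with 2 free letters between) on either strand in capitals.
IFIT1 (chr10:89392462-89392574, plus strand): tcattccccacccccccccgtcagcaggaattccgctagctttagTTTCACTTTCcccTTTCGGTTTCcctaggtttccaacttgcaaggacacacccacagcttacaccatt
BST2 (chr19:17405700-17405805, minus strand): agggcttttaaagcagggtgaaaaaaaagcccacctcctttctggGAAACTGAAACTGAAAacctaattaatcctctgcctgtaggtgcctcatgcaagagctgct

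The capitals of BST2 join a pair of matches that overlap by 4 letters. OASL, an antiviral relative of the OAS enzymes, stood at 48.5 and 37.4 CPM in control shRNA, 4.15 and 2.196 in shEZH2, 31.3 and 32.95 in DMSO, and 31.2 and 28.1 in GSK126. IFIT1, which binds viral RNA, was at 74.8 and 70.8 CPM in control shRNA, 11.4 and 8.73 in shEZH2, 58.7 and 48.8 in DMSO, and 55.2 and 40.2 in GSK126, and BST2 (tetherin) at 66.9 and 56.5 CPM in control shRNA, 13.6 and 12.8 in shEZH2, 77.2 and 76.5 in DMSO, and 73.6 and 71.5 in GSK126. Both shEZH2 libraries of each lay below the other 6, and the differences were -3.68 ± 0.32 (SE), -2.69 ± 0.26 (SE) and -2.15 ± 0.18 (SE), at edgeR adjusted p values of 5.72e-05, 1.10e-04 and 4.96e-05. In all, 11 of 45 interferon-stimulated genes were called (24.4%, beside 8.01% of all genes), all lower. All 11 were in the class that did not answer the inhibitor. The other 8 were DDX60, IFI44, IFI35, IFIT2, ISG15, RIGI, ISG20 and IFIH1, from -1.84 (DDX60) to -1.32 (IFIH1). The median difference was -0.74, made of -0.58 in shEZH2 and -0.01 in GSK126. The count was 5 without control shRNA replicate 1 and 5 without shEZH2 replicate 2.

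Antigen presentation held 2 genes whose difference was called although neither experiment was called alone. HLA-B, a class I heavy chain, stood at 211 and 243 CPM in control shRNA, 147 and 153 in shEZH2, 151 and 162 in DMSO, and 207 and 217 in GSK126. TAP2, which carries peptides to class I molecules, was at 159 and 207 CPM in control shRNA, 114 and 87.8 in shEZH2, 109.9 and 136 in DMSO, and 144 and 171 in GSK126. Both were lower in each shEZH2 library than in either control and higher in each GSK126 library than in DMSO of the same number. Neither was called in shEZH2, at -0.60 and -0.86, and their differences of -1.04 ± 0.16 (SE) and -1.22 ± 0.25 (SE) were called at edgeR adjusted p values of 0.00113 and 0.00412, calls that were lost without control shRNA replicate 2 or DMSO replicate 1. The call of HLA-B was also lost without GSK126 replicate 2 and after the GC correction, and that of TAP2 without shEZH2 replicate 2. PSMB10, a subunit of the immunoproteasome, and HLA-F differed by -1.36 and -2.71, which makes 4 of 21 genes called, all lower (median difference -0.50). HLA genes are related to each other in sequence, so that reads may have been divided among them and their levels are uncertain. Genes whose difference was called with no call in shEZH2 numbered 98 higher and 83 lower in all. The MHC count was 1 without control shRNA replicate 2, without GSK126 replicate 2 or without shEZH2 replicate 2, 2 without control shRNA replicate 1 or DMSO replicate 1, and 2 after the GC correction.

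Genes of cytosolic ribosomal proteins were lower where they were called. Of 74 such genes 15 were called (20.3%, beside 8.01% of all genes), all lower, and the median difference was -0.78. RPL28 stood at 867 and 942 CPM in control shRNA, 291 and 227 in shEZH2, 676 and 905 in DMSO, and 694 and 899 in GSK126. RPL13 was at 772 and 741 CPM in control shRNA, 264 and 196 in shEZH2, 608 and 847 in DMSO, and 628 and 860.2 in GSK126, and the differences were -1.82 ± 0.25 (SE) and -1.75 ± 0.28 (SE). GSK126 changes of the 74 genes lay between -0.02 and 0.11, and the DMSO replicates of RPL13 differed by more than this. Many ribosomal protein genes have processed pseudogenes, to which reads may have been assigned. The count moved with single libraries: 36 genes without DMSO replicate 2 or without GSK126 replicate 1, 9 without DMSO replicate 1, 8 without GSK126 replicate 2, 5 without either control library or shEZH2 replicate 2, and 10 after the GC correction. Of 75 nuclear genes of oxidative phosphorylation 4 were called (5.33%, below the 8.01% of all genes), all lower, among them UQCRC1 (-1.45), ATP5MC1 (-1.26) and ATP5MC2 (-1.22). Without either control library or shEZH2 replicate 2 the count was 1, and the list's median difference of -0.19 was 0.01 without GSK126 replicate 2. The 13 mitochondrially encoded genes had a median difference of 0.11, and MT-CO1, a subunit of cytochrome oxidase, differed by -0.66 ± 0.14 (SE), at an edgeR adjusted p of 0.00529 but less than 2-fold.

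GAPDH, the glycolytic enzyme often used as a reference transcript, fell with depletion. It stood at 5356 and 5729 CPM in control shRNA, 783 and 605 in shEZH2, 4051 and 5279.7 in DMSO, and 3793 and 4923 in GSK126, a difference of -2.90 ± 0.24 (SE) at an edgeR adjusted p of 4.96e-05. The enzymes next to it in glycolysis had smaller values, with differences of -0.65 (ALDOA), -0.44 (TPI1), 0.03 (PGK1), 0.10 (PGAM1), -0.35 (ENO1) and -0.24 (LDHA), all short of 2-fold. These enzymes were looked up after the GAPDH value was seen. In the glycolysis and hypoxia list 3 of 36 genes were higher and 2 lower, 13.9% in all, beside 4.67% of all genes higher and 8.01% lower. PDK1, the kinase that closes pyruvate entry to the mitochondrion, rose from 34.4 and 30.5 CPM in control shRNA to 79.6 and 95.6 CPM, a difference of 1.63 ± 0.20 (SE), and NDRG1, a hypoxia-induced stress gene, differed by 1.36. GAPDH has many processed pseudogenes, to which reads may have been assigned.

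Genes of lipid synthesis were lower with depletion where they were called, from unequal starting levels. SREBF1, the transcription factor of fatty acid synthesis, stood at 168 and 83.5 CPM in control shRNA, 15.2 and 10.02 in shEZH2, 236 and 238 in DMSO, and 208 and 216 in GSK126. ACSS2, which makes acetyl-CoA from acetate, was at 48.2 and 32.5 CPM in control shRNA, 6.37 and 4.504 in shEZH2, 88.1 and 87.5 in DMSO, and 93.1 and 91.2 in GSK126. In both genes the shEZH2 libraries were lowest and the drug libraries highest, and the differences were -3.17 ± 0.39 (SE) and -2.98 ± 0.28 (SE). With FADS1, a desaturase (-1.80), 7 of 33 genes of cholesterol and fatty acid synthesis were called (21.2%, beside 8.01% of all genes), all lower. Their median difference of -0.33 was 0.10 without control shRNA replicate 1, the library in which SREBF1 was about 2-fold above its replicate, and the count was 3 without shEZH2 replicate 2. In the PPAR-delta and lipid droplet list ANGPTL4 rose while ACADVL, which starts the breakdown of long fatty acids, and the lipase gene PNPLA2 fell, at -1.62 and -1.29. In that list 2 of 18 genes were called in each direction (22.2% in all), beside 4.67% of all genes higher and 8.01% lower.

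Matrix, adhesion and signalling genes moved both ways. Over all genes 4.67% were called higher and 8.01% lower. Called in either direction were 32.1% of the TGF-beta and EMT list and 30.0% of the mesenchymal markers. For matrix glycoproteins and proteases the share was 21.1%, for integrin and laminin genes 37.5% and for collagen genes 20.6%. TGFB1I1, a focal adhesion cofactor, and TAGLN, an actin-binding protein of contractile cells, fell, with differences of -2.42 ± 0.22 (SE) and -3.35 ± 0.39 (SE). TAGLN was at 11.7 and 13.9 CPM in control shRNA against 1.78 and 2.03 in shEZH2 and at 4.94 and 7.298 CPM in DMSO against 7.34 and 11.3 in GSK126, lowest in shEZH2. In the TGF-beta and EMT list 4 of 28 genes were higher and 5 lower. Of 10 mesenchymal markers 3 were called, all lower: vimentin (VIM) at -1.16, the receptor kinase AXL at -1.74 and caveolin 1 (CAV1) at -1.11. Among matrix glycoproteins and proteases 5 of 38 genes were higher and 3 lower. The proteases ADAMTS6 and ADAM19 rose, by 1.96 and 1.93 in the difference, and the median was 0.46. Of 24 integrin and laminin genes 5 were higher and 4 lower. LAMA5, a laminin chain, was at 526 and 297 CPM in control shRNA against 56.2 and 46.1 in shEZH2 and differed by -2.93, whereas the integrin chains ITGB2 and ITGA3 differed by 1.52 and -1.51. LOXL4, another crosslinking enzyme, fell where LOX rose, at -2.09 ± 0.37 (SE), and the collagen list had 3 of 34 genes higher and 4 lower. Without shEZH2 replicate 2 the TGF-beta list had 2 higher and 3 lower, the integrin list 2 higher and the collagen list 1 lower. The higher count was also 2 in the TGF-beta list without either control library and in the integrin list without control shRNA replicate 1 or DMSO replicate 1.

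YAP and TEAD targets were divided as well. CCN2, a secreted matrix signal, stood at 241 and 297 CPM in control shRNA, 1002 and 1421 in shEZH2, 263 and 406 in DMSO, and 387 and 563 in GSK126, above its control in both treatments, with a difference of 1.66 ± 0.33 (SE), while FJX1 differed by -1.45. The YAP and TEAD list had 3 of 25 genes higher and 3 lower. Called in either direction were 24.0% of that list, 30.3% of the RAS-MAPK and AP-1 list and 22.2% of the epithelial list. Over all genes 4.67% were called higher and 8.01% lower. Of 33 genes of RAS-MAPK output and AP-1, 5 were higher and 5 lower, with DUSP5, a phosphatase of ERK, at 1.66 and SPRY1, a feedback inhibitor, at -1.74. Epithelial genes gave 4 higher and 4 lower of 36. GRHL1, a transcription factor of epithelial junctions, stood at 0.728 and 1.18 CPM in control shRNA against 11.7 and 17.1 in shEZH2 and at 1.04 and 1.22 CPM in DMSO against 1.097 and 1.49 in GSK126, a difference of 3.72 ± 0.50 (SE). KRT7 (a simple epithelial keratin) and ESRP2 (a splicing factor of epithelial cells) fell, at -2.06 and -1.75, and KRT19 at -1.36, which was not called after the GC correction. Without control shRNA replicate 1 or shEZH2 replicate 2 the YAP list had 1 higher and 1 lower, and without these or control shRNA replicate 2 the epithelial list had 2 higher and the RAS-MAPK list 2 or 3 higher.

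Histone genes were higher with depletion where they were called. Of 28 replication-dependent histone genes tested (of 63 listed), 9 were called (32.1%, beside 4.67% of all genes), all higher, and the median difference was 0.94. Only 3 of the 9 belonged to the class that did not answer the inhibitor, and 7 of the 28 GSK126 intervals lay inside 2-fold. The count was 6 without control shRNA replicate 1 or shEZH2 replicate 2, and the median ran from 0.52 without DMSO replicate 2 to 1.38 without GSK126 replicate 2. H2BC21 stood at 6.24 and 5.198 CPM in control shRNA, 45.2 and 60.1 in shEZH2, 2.92 and 3.21 in DMSO, and 1.96 and 2.24 in GSK126. Its shEZH2 libraries lay above the rest, and the difference was 3.74 ± 0.31 (SE). H2BC11 was at 4.63 and 5.26 CPM in control shRNA against 26.5 and 34.6 in shEZH2 and at 2.03 and 2.32 CPM in DMSO against 1.44 and 2.07 in GSK126, a difference of 2.93 ± 0.34 (SE). Control shRNA lay above DMSO in each of these genes, and GSK126 lay below DMSO of the same number. The main transcripts of these genes have no poly(A) tail while the libraries were selected on poly(A), and the copies are near-identical, so that the values cover only a part of their RNA.

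Stress lists were mixed. Among unfolded protein and integrated stress genes 5 of 35 were higher and 2 lower, and 1 was higher and 1 lower without control shRNA replicate 1 or shEZH2 replicate 2. VLDLR, a lipoprotein receptor, rose to 84.8 and 111 CPM in shEZH2, a difference of 2.20 ± 0.20 (SE), and the chaperone PDIA4 fell, at -1.75 ± 0.18 (SE). The other lower gene, PHGDH of serine synthesis, was near the limit of counting at 1.14 and 0.945 CPM in control shRNA, 0.0741 and 0.113 in shEZH2, 0.642 and 1.27 in DMSO, and 1.56 and 1.21 in GSK126. DNAJB9, a chaperone cofactor of the endoplasmic reticulum, stood at 13.9 and 13.8 CPM in control shRNA against 28.002 and 28.7 in shEZH2 and at 45.4 and 38.3 CPM in DMSO against 45.1 and 31.1 in GSK126, a difference of 1.17. Among NRF2 targets 2 of 24 were higher and 3 lower, with GCLM of glutathione synthesis at 1.23, and 1 was lower without shEZH2 replicate 2. Of 28 p53 targets 3 were higher and 3 lower, the latter GDF15, FDXR (-2.27) and CCNG1 (-1.82), and the higher count was 1 without any 1 of the 4 knockdown libraries. Among NF-kB targets, chemokines and cytokines 1 of 27 was higher, the inhibitor of the pathway TNFAIP3 (1.3), and 2 were lower, IL11 and IL6.

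Classic Polycomb targets were few in these cells. Of 39 HOX genes 12 passed the filter on low counts, and of 114 developmental transcription factors 34 did. HOXD1 was called in edgeR, at 2.81 and 2.48 CPM in control shRNA, 12.96 and 12.8 in shEZH2, 4.102 and 4.53 in DMSO, and 4.27 and 5.92 in GSK126, and its difference was 2.04 ± 0.32 (SE). It was the only called gene of the 12 HOX genes (8.33%, beside 4.67% of all genes called higher). The HOX medians differed in sign, at 0.33 for shEZH2, 0.16 for GSK126 and -0.30 for the difference, and the last was 0.24 over genes with a mean of at least 50 counts and 0.04 after the GC correction. Among the developmental factors 3 were called (8.82%, near the 8.01% of all genes), all lower: PITX1 (-2.40), SIX2 (-2.17) and FOXA2 (-1.58). PITX1, a limb and pituitary factor, stood at 100.03 and 76.9 CPM in control shRNA, 15.4 and 15.6 in shEZH2, 72.8 and 85.7 in DMSO, and 69.5 and 77.3 in GSK126. Of 25 PRC1 genes RYBP, a subunit of variant complexes, was called in edgeR, at 1.19 ± 0.20 (SE). That is 4% of the list, near the 4.67% of all genes called higher. With DESeq2's size factors, and without DMSO replicate 2 or GSK126 replicate 1, 2 were called higher. Genes held in any of the 30 lists made up 39 of the 528 genes that rose (7.39%) and 107 of the 1047 that fell (10.2%), against 6.01% of genes tested, so that most of the class lies outside the lists.

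**Figure D3:**
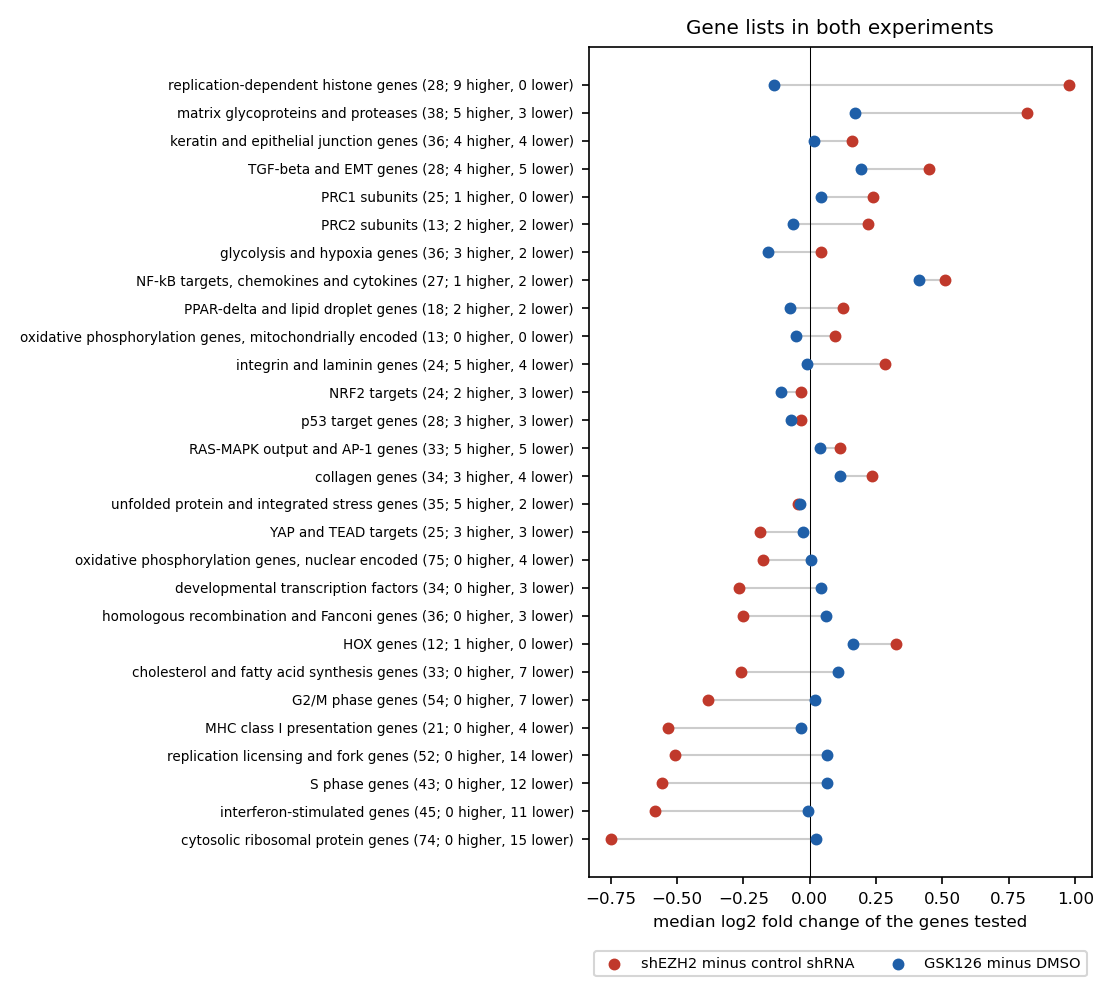
Median log2 change of the genes tested in each of 28 lists, in shEZH2 (red) and in GSK126 (blue), ordered by the median difference. Each label gives the number of genes tested and how many had the difference called in either direction. GSK126 medians stay between -0.16 and 0.41, while those of shEZH2 run from -0.75 (ribosomal proteins) to 0.98 (histones).

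The reverse class, genes that answered the inhibitor and not depletion, held 0 genes in edgeR and 1 gene, INHBA, by DESeq2. In edgeR 623 genes had an unadjusted p under 0.05 for GSK126, less than a 0.05 share of genes tested. The drug replicates moved together, with the difference between replicates correlating at r = 0.68 between DMSO and GSK126 across 11830 genes, against -0.10 to 0.09 between other pairs of groups. A fit of the 4 drug libraries paired by replicate, added after the data were seen, called 53 genes higher (0.346% of genes tested) and 23 lower (0.15%), on 1 residual degree of freedom. Of the 23 lower genes, 10 had at most 3 counts in either group, and of the 53 higher genes 6 did. Among the 53, 14 (26.4%) were called higher in shEZH2 and 3 lower, beside 7.23% and 10.4% of all genes, and 36 were not called. Among the 23, 1 was called lower, 1 higher and 21 not.

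INHBA and TNFRSF11B came nearest to the reverse class. INHBA (ENSG00000122641, chromosome 7, 41667168 to 41705834, minus strand), the beta A subunit of activin and inhibin, stood at 1.77 and 3.96 CPM in control shRNA, 3.48 and 2.703 in shEZH2, 5.14 and 4.26 in DMSO, and 15.9 and 16.8 in GSK126. Both GSK126 libraries lay above the other 6, and depletion left it within 2-fold, with an interval of -0.62 to 0.85. The paired GSK126 change was 1.79 ± 0.13 (SE) at an edgeR adjusted p of 1.14e-11, and the difference was -1.68 ± 0.44 (SE) at an edgeR adjusted p of 0.014, which misses 0.01. TNFRSF11B, osteoprotegerin, a decoy receptor of the bone resorption signal, was at 2.96 and 2.42 CPM in control shRNA, 3.26 and 1.18 in shEZH2, 7.46 and 5.31 in DMSO, and 22.5 and 16.1 in GSK126. Its paired change was 1.60 ± 0.12 (SE) and its difference -1.93 ± 0.52 (SE) (edgeR adjusted p 0.0154), but the shEZH2 interval of -1.23 to 0.56 reached beyond 2-fold. FLG, the epidermal barrier protein filaggrin, stood at 20.4 and 13.9 CPM in control shRNA, 21.8 and 19.5 in shEZH2, 22.98 and 13.99 in DMSO, and 53.8 and 38.9 in GSK126, with a paired change of 1.33, an shEZH2 change of 0.26 and a difference of -1.06 (edgeR adjusted p 0.0393). With the wider rule of an adjusted p under 0.05 for the difference, 4 of the 53 genes met it with an shEZH2 interval inside 2-fold, among them SNX10, INHBA and FLG.

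The cytokine IL6 differed with no call in shEZH2. It stood at 3.797 and 2.95 CPM in control shRNA, 2.52 and 2.196 in shEZH2, 34.99 and 36.2 in DMSO, and 63.4 and 54.7 in GSK126. All 4 drug libraries lay above the knockdown libraries, GSK126 lay above DMSO, and shEZH2 lay below control shRNA. The difference was -1.26 ± 0.26 (SE), at an edgeR adjusted p of 0.00455, and the paired GSK126 change was 0.73, short of 2-fold. The call was lost without control shRNA replicate 1, DMSO replicate 1 or either shEZH2 library, and with the effective length as an offset. In the NF-kB, chemokine and cytokine list the median GSK126 change was 0.41, the highest of the lists. In the paired fit 2 of its 27 genes were called higher, CXCL1 (1.31) and PTGS2 (1.52), both of low count. Over all genes that share was 0.346%. The shEZH2 median of that list was 0.51, so that its median difference was 0.16, and it was -0.02 without GSK126 replicate 2.

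**Figure D4:**
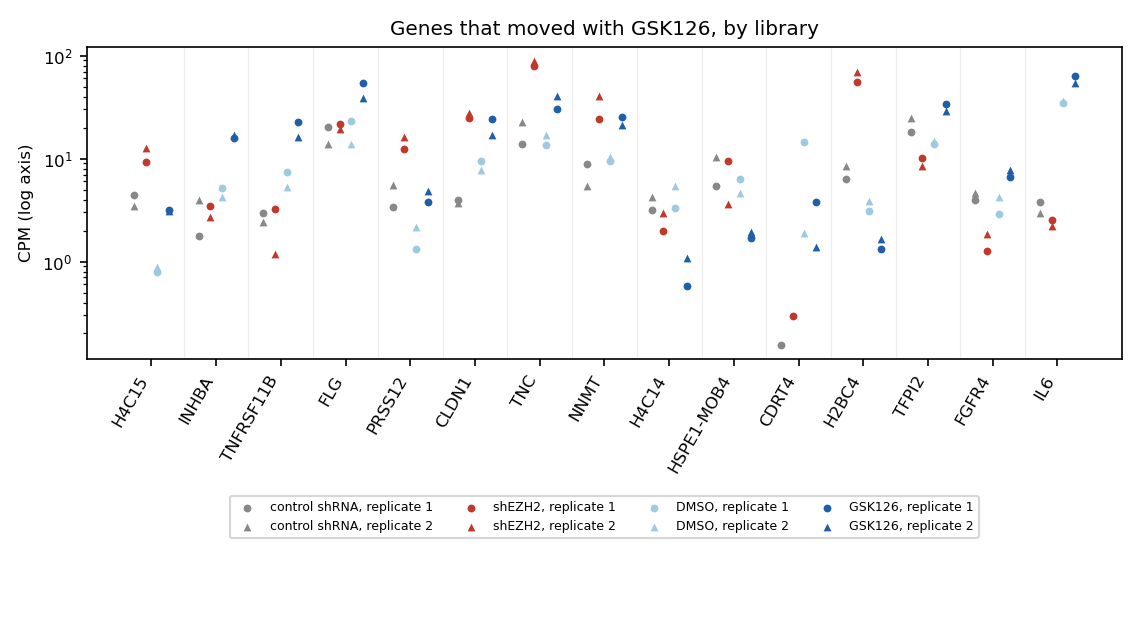
CPM (log axis) in each library for the genes named among those called for GSK126 in the paired fit, with TFPI2, FGFR4 and IL6 at the right, of which IL6 was not called in the paired fit. Libraries with 0 counts are not drawn. INHBA and TNFRSF11B are highest in GSK126 (dark blue), and TNC highest in shEZH2 (red).

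With the paired fit for GSK126, genes that answered both treatments numbered 15 in the same direction, 14 higher and 1 lower. CLDN1, a tight junction claudin, stood at 3.95 and 3.72 CPM in control shRNA, 24.9 and 27.6 in shEZH2, 9.54 and 7.68 in DMSO, and 24.4 and 16.8 in GSK126. Each treatment lay above its own control, at 2.77 for shEZH2 and 1.25 in the paired fit for GSK126, and the difference of 1.52 ± 0.29 (SE) was called at an edgeR adjusted p of 0.00314, a call lost without either control library or shEZH2 replicate 2. TNC (tenascin C, a matrix glycoprotein) was at 13.9 and 22.6 CPM in control shRNA, 79.6 and 88.4 in shEZH2, 13.5 and 17.03 in DMSO, and 30.04 and 40.8 in GSK126, and NNMT, an enzyme that consumes the methyl donor, at 8.84 and 5.38 CPM in control shRNA, 24.4 and 40.8 in shEZH2, 9.54 and 10.4 in DMSO, and 25.3 and 20.97 in GSK126. For TNC and NNMT the differences of 0.99 and 0.98 missed the threshold, at edgeR adjusted p values of 0.0323 and 0.0624. PRSS12, a secreted protease, rose by 1.69 and 1.32, with a difference interval of -0.59 to 1.34. H4C15 rose by 1.46 and 1.90, while H4C14, a copy that encodes the same protein, fell by 2.39 on the log2 scale under GSK126. The copies lie near each other on chromosome 1, and how reads were divided between them is uncertain. HSPE1-MOB4, a readthrough transcript that shares exons with its parent genes, and CDRT4, which stood at 14.4 and 1.88 CPM in DMSO against 3.75 and 1.38 in GSK126, were the other named genes lower under GSK126, and their levels are uncertain for that reason and for the spread in DMSO.

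A further 4 genes were called in opposite directions. TFPI2 (ENSG00000105825, chromosome 7, 93885396 to 93890753, minus strand), an inhibitor of serine proteases in the matrix, stood at 17.9 and 25.04 CPM in control shRNA, 10.1 and 8.39 in shEZH2, 13.9 and 14.9 in DMSO, and 33.7 and 28.9 in GSK126. It fell with depletion (-1.22) and rose with the inhibitor (1.12), and the difference was -2.34 ± 0.27 (SE) at an edgeR adjusted p of 2.49e-04. FGFR4, a receptor of fibroblast growth factors, was at 3.95 and 4.61 CPM in control shRNA, 1.26 and 1.86 in shEZH2, 2.87 and 4.26 in DMSO, and 6.64 and 7.698 in GSK126, a difference of -2.44 ± 0.41 (SE) at an edgeR adjusted p of 0.0015. SEMA5A, a semaphorin, moved the same way at lower counts. H2BC4 was the reverse, at 6.398 and 8.39 CPM in control shRNA, 55.1 and 70.2 in shEZH2, 3.11 and 3.87 in DMSO, and 1.33 and 1.67 in GSK126, with a difference of 4.30 ± 0.33 (SE) and an edgeR adjusted p of 3.97e-05.

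**Figure D5:**
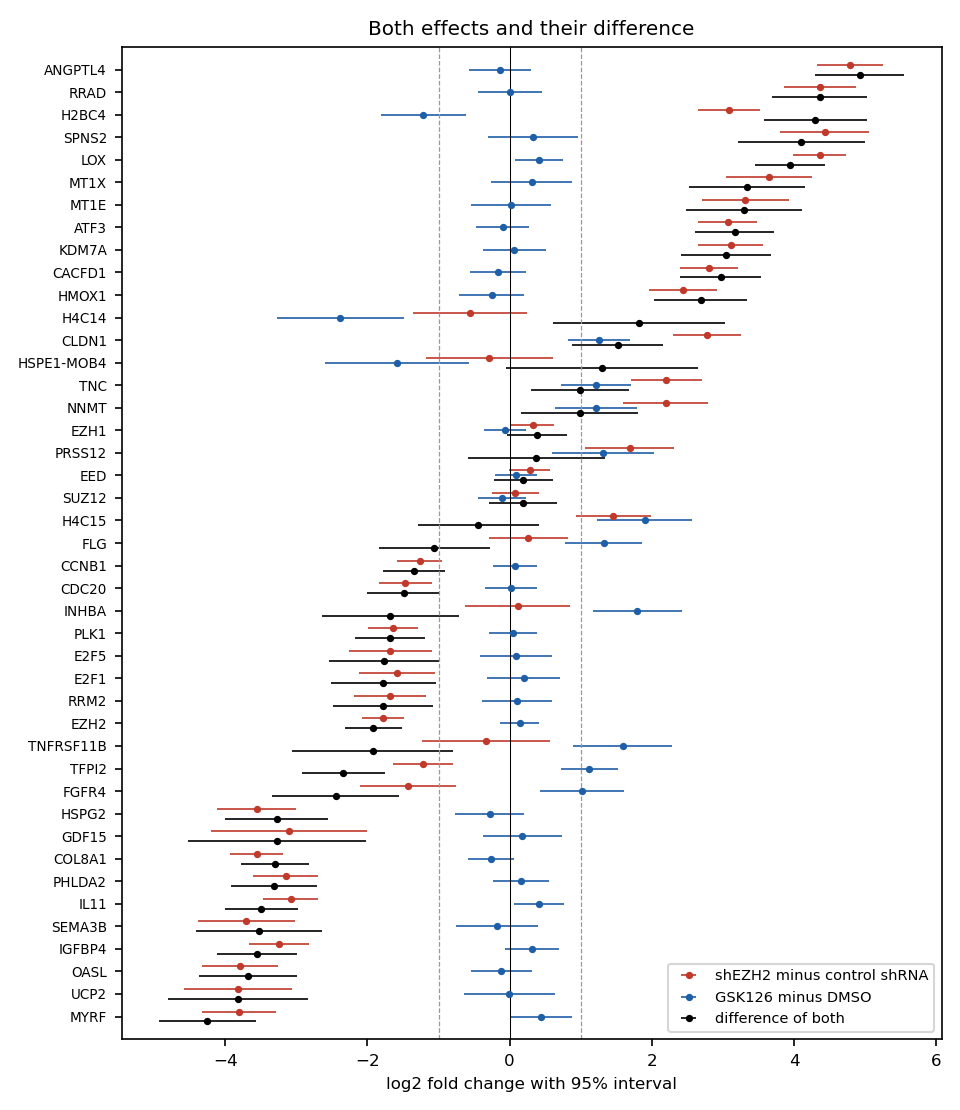
Log2 change with its 95% interval for the named genes, in shEZH2 (red), in GSK126 (blue) and for their difference (black), ordered by the difference. Dashed lines mark 2-fold. From MYRF to HSPG2 at the bottom the blue intervals lie between the dashed lines, and from ANGPTL4 to HMOX1 at the top the same holds except for H2BC4. The depletion class requires such an interval, so that its genes show it by selection.

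Promoter letters were compared as a description. A promoter window around the start was at hand for 7897 of 15246 tested genes with a unique symbol. The motifs were E2F (TTTCCCGC, TTTGGCGC, TTTGCCGC or TTTCGCGC), CHR (TTTGAA), AP-1 (TGAGTCA or TGACTCA) and the ISRE of IFIT1 and BST2 shown above, on both strands. E2F letters were in 5.72% of 612 promoters of genes that fell with depletion alone, 3.40% of 265 that rose and 5.48% of all. CHR letters were in 8.17%, 6.79% and 9.33%, AP-1 letters in 2.45%, 4.53% and 3.29%, and ISRE letters in 3.10%, 3.02% and 2.90%. In the lists the shares were higher, with E2F letters in 56.5% of 23 S phase promoters, CHR letters in 27 of 36 G2/M promoters and ISRE letters in 73.1% of 26 interferon-stimulated ones. Among members of these lists that fell with depletion alone, the letters were in 4 of 6, 4 of 5 and 6 of 8 promoters. In the replication licensing and fork list E2F letters were in 52.9% of 34 promoters. They were in 2 of the 6 promoters of its members that fell with depletion alone.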

How the data were processed

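RNA was selected on poly(A), and per the paper's methods directional libraries were sequenced, mapped with STAR to hg38 and counted with RSEM by the authors. Per the labels the versions were STAR 2.7.2b and RSEM 1.3.1, and the strand setting of the counting is not given in the sources used here. The deposited values were RSEM expected counts, TPM and effective length per gene. Of 18 records, 8 repeat another and each of the 10 distinct libraries was used once. The study's E2F1 knockdown entered only an alternative with all 10 libraries.

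Expected counts were rounded to whole numbers, and 15309 genes passed edgeR's filterByExpr. TMM scaling and the quasi-likelihood test of edgeR 4.0.16 (R 4.3.3) gave every main contrast over 4 groups without a block, on 4 residual degrees of freedom, and p-values were adjusted by Benjamini-Hochberg over the whole table. A call needs an adjusted p under 0.01 and more than 2-fold. Names and coordinates come from GENCODE v44 (GRCh38), and 62625 of 62703 identifiers matched. Library totals set a floor of 3 counts, 0.150 to 0.227 CPM, which covers counting error only.

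The genes named were the PRC2 core and cell cycle genes of the study, the 10 largest differences per direction in the depletion class, up to 8 per direction called for GSK126, and up to 3 called members of each list. Some genes that the rule names are not reported here. Any other gene was picked after its values were seen. All members and lists were chosen with earlier results of these data known. The block of replicate number over 8 libraries called 0 GSK126 genes, so the inhibitor genes were taken from the added fit of 4 drug libraries. The labels number replicates 1 and 2 in each group, and whether they mark shared cultures is not stated. Same-numbered DMSO and GSK126 libraries deviated together (r = 0.68 across 11830 genes), and control shRNA and shEZH2 did not (r = 0.04). Alternatives were DESeq2 1.42.0, its size factors, other filters and thresholds, effective length, GC content and length, the replicate block, all 10 libraries and leaving out each library.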

Additional observations from a re-analysis of the deposited data

Results flagged for a closer look

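In 4 genes both experiments were called in opposite directions, with the GSK126 call taken from the paired fit, and the difference itself was called by edgeR. The difference on the log2 scale was -2.34 for TFPI2, -2.44 for FGFR4 and -5.29 for SEMA5A, which fell with depletion and rose with the inhibitor. It was 4.3 for H2BC4, which rose with depletion and fell with the inhibitor. SEMA5A was at 0.884 and 0.532 CPM in control shRNA, 0.148 and 0 in shEZH2, 1.28 and 0.663 in DMSO, and 4.39 and 3.27 in GSK126, so that shEZH2 lay at or under the floor of 3 counts and its fitted value is no bound.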

How the results depend on the processing

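Of 2166 values for named genes under other settings, 2038 kept their direction and their side of the threshold, 99 fell short of it, 29 passed it and 0 changed direction. With each library left out in turn, the difference called 302 to 888 genes higher and 519 to 1314 lower, shEZH2 called 1735 to 2776 genes, and the depletion class held 266 to 500 higher and 483 to 1096 lower. The lowest values came without shEZH2 replicate 2, and without control shRNA replicate 1 the class held 340 and 531. At an adjusted p under 0.05 with no fold, the difference called 2322 higher and 2814 lower, shEZH2 7638, and the class held 2054 and 2442. At 1.5-fold these were 1092 higher for the difference, 4708 for shEZH2 and 975 higher in the class.

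The 0 counts for GSK126 depended on the fit. DESeq2 called 12 genes, with 1 in the reverse class, 5 in both in the same direction and 1 opposite. With no filter on low counts edgeR called 52, with 5, 16 and 8. The 4 drug libraries with the replicate block, a fit chosen after seeing the data, called 76, with 15 in the same direction and 4 opposite. With the replicate block over 8 libraries the difference called 807 genes higher and 1383 lower, and the depletion class held 592 and 1184. Without control shRNA replicate 1, control shRNA replicate 2 or shEZH2 replicate 2, 16 to 18 named genes lost their call, among them E2F5, CLDN1, PHF19, FANCF, ITGB2, CCN2, FJX1, DNAJB9, ATP5MC1 and ATP5MC2 in each case, and after the GC correction PHF19, RYBP, PSMB10, HLA-B, FJX1, PNPLA2, GCLM and KRT19 did. The cause was not tested. With 2 libraries per group, the depth and the spread leave genes of low count with wide intervals.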
